A study of Mus musculus with 4 samples.

Results

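Regulatory T cells are CD4+ T cells that restrain immune responses, and 10 genes characteristic of them were followed here through thymocytes with and without the microRNA miR-142. The 10 genes were Foxp3, Ikzf2 and Ikzf4, which encode transcription factors, the receptor genes Il2ra, Ctla4, Tnfrsf4, Tnfrsf9 and Tnfrsf18, the docking protein gene Lrrc32 and the G protein-coupled receptor gene Gpr83. They were taken by name from 19938 named genes on the array, and each was read by 1 probe set that lists no other gene. All 10 had a mean above background, the log2 value of 5.87 below which 95% of olfactory and vomeronasal receptor genes lay, and none read below it on any of the 4 arrays.

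The CD4+ CD8- thymocytes came from C57BL/6n mice aged 8 weeks that were miR-142-/- or carried intact miR-142 (WT, miR-142+/+ in the labels). The labels give a pool of 4 miR-142-/- mice (1 female and 3 males) and a pool of 5 WT mice (3 females and 2 males), and thymocytes were depleted of CD8+ cells and sorted into CD69- Qa2+ cells, which are the more mature, and CD69+ Qa2- cells, which have more recently passed selection. The groups were thus miR-142-/- Qa2+, WT Qa2+, miR-142-/- Qa2- and WT Qa2-, with 1 Affymetrix Gene 1.0 ST array each. The design of the miR-142-/- allele is not given in the sources used here, and no sort for regulatory T cells was made, so each array measured whatever regulatory T cells its CD4+ population held.

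Foxp3 defines regulatory T cells, and most of them begin to express it in the thymus. Thymocytes that bind self antigens strongly first raise the interleukin 2 receptor chain CD25 (Il2ra) and the tumour necrosis factor receptors GITR (Tnfrsf18), OX40 (Tnfrsf4) and CD137 (Tnfrsf9), and interleukin 2 then helps to induce Foxp3. CTLA-4 and GARP, the product of Lrrc32, serve suppression in the mature cell. Apart from Foxp3 in the mouse, none of these genes is confined to regulatory T cells, since recently activated conventional T cells also carry CD25, CTLA-4 and the 3 tumour necrosis factor receptors.

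The mature microRNAs that the miR-142-/- mice lack are shown first, because the genotype is defined by them. Both sequences are from RefSeq (GRCm38.p6, plus strand), at chr11:87756903-87756925 for the 3p arm and chr11:87756867-87756887 for the 5p arm, and capitals mark the seed (bases 2 to 8) that pairs with target RNAs. The arms have different seeds.
mmu-miR-142a-3p: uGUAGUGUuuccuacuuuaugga
mmu-miR-142a-5p: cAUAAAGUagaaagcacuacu

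The labels were checked on a few genes. The Mir142 probe set read 4.88 in miR-142-/- Qa2+ cells and 5.29 in miR-142-/- Qa2- cells, below background, against 9.41 in WT Qa2+ and 10.11 in WT Qa2- cells. Cd69 was lower in Qa2+ than in Qa2- cells in miR-142-/- and WT alike (by -0.96 and -0.77), and the Qa-region genes H2-Q4 and H2-Q5 were higher by 0.63 to 0.96. Markers of the earlier double-positive stage did not follow this order. Of 6 above background, 4 in miR-142-/- and 5 in WT were at least 1.5-fold higher in Qa2+ cells (2.65% and 2.69% of all genes were). Rag1 was higher by 1.90 in miR-142-/- and 2.72 in WT, while Cd1d1 was lower (-0.12 and -0.53). The cause was not tested. For miR-142-/- Qa2- cells one free-text entry says Qa2+, but the title and the sorting entry say Qa2-, and these were followed. The 7 measured CD4 T cell markers, among them Cd4 and Cd3e, were all above background on all 4 arrays, with list medians of 12.36 to 12.58. Of 6 B cell markers only Cd79b was above background. Although both pools were labelled as mixed in sex, Xist was below background in miR-142-/- cells and above 12 in WT cells, while Kdm5d, Uty and Eif2s3y on the Y chromosome showed the reverse. Genotype and these sex-linked transcripts cannot be told apart here, which bears on Foxp3 as an X-linked gene. For 342 X-linked genes above background the median genotype difference was 0.03 among Qa2+ cells and -0.01 among Qa2- cells.

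Among the transcription factor genes, Foxp3 (probe set 10598292) was lower without miR-142 and higher in the more mature cells. It read 8.69 in miR-142-/- Qa2+ cells, against 10.36 in WT Qa2+ cells. In Qa2- cells it read 7.01 in miR-142-/-, against 8.21 in WT. The genotype difference, miR-142-/- minus WT, was thus -1.66 in Qa2+ and -1.19 in Qa2- cells on the log2 scale, or 3.17-fold and 2.29-fold lower. WT Qa2+ cells were highest and miR-142-/- Qa2- cells lowest, with the other two in between. With bulk RNA, fewer regulatory T cells in a population and less Foxp3 RNA in each of them cannot be told apart. For all 10 genes, whether higher or lower, the share of expressing cells, regulatory T cells or others, and the RNA per cell cannot be told apart.

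Ikzf2 (probe set 10355312), which encodes the Ikaros family factor Helios found in most thymic regulatory T cells, showed almost no genotype difference. It read 10.37 in miR-142-/- and 10.43 in WT Qa2+ cells. In Qa2- cells it read 11.04 in miR-142-/- and 10.96 in WT. Both genotype differences, -0.06 and 0.08, were smaller than the SD of the differences of 1194 olfactory and vomeronasal receptor genes, which was 0.18 in Qa2+ and 0.15 in Qa2- cells. That SD describes scatter at low signal between 2 arrays and not the spread between mice.

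Ikzf4 (probe set 10373502) encodes Eos, an Ikaros family partner of Foxp3. It read 8.84 in miR-142-/- and 9.37 in WT Qa2+ cells, and 8.79 in miR-142-/- and 9.09 in WT Qa2- cells. The differences of -0.54 and -0.30 pointed the same way as those of Foxp3 and were under 1.5-fold as deposited. After centring each array on its median the Qa2+ difference was -0.60, past 1.5-fold, so Ikzf4 lies at that limit.

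**Figure D1:**
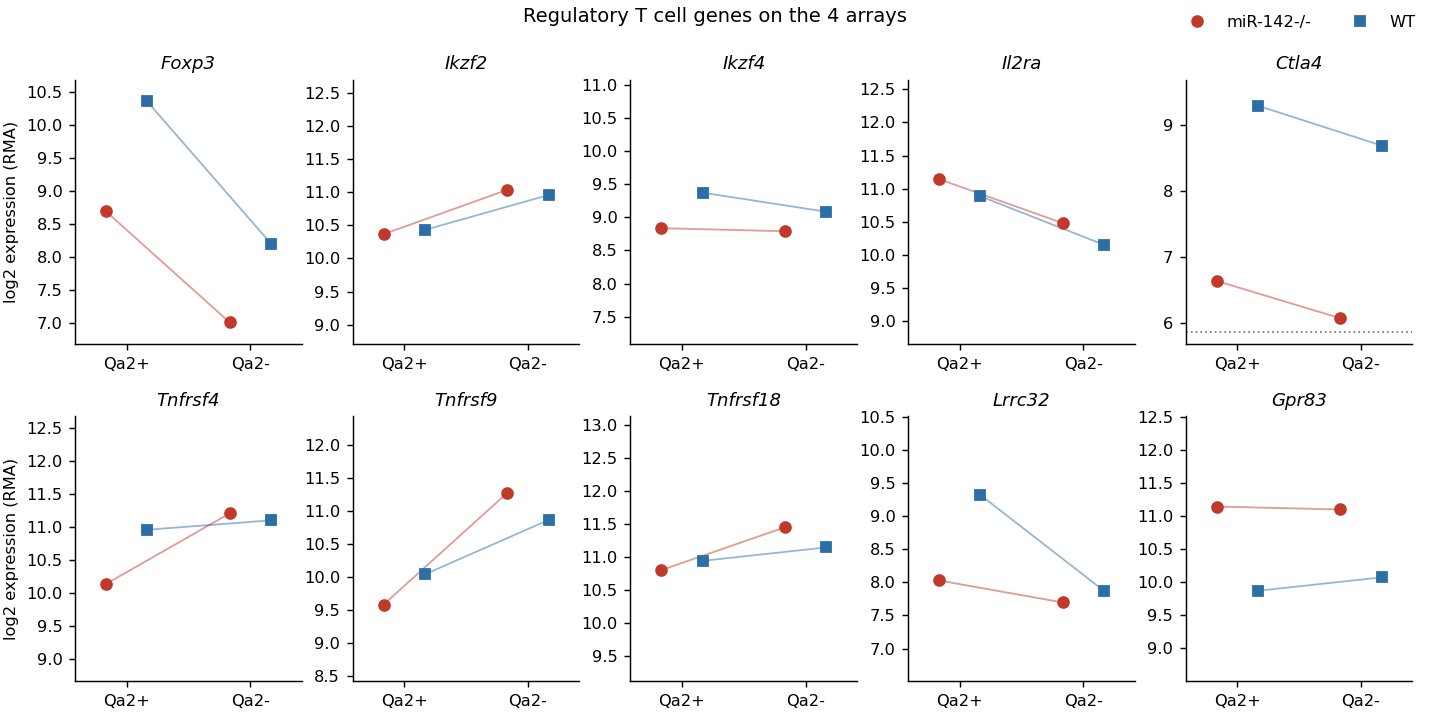
Log2 expression (RMA) of the 10 genes, 1 panel per gene, for Qa2+ cells (left pair) and Qa2- cells (right pair), with miR-142-/- as circles and WT as squares. Each point is 1 array, lines join the 2 arrays of 1 genotype, every panel spans 4 log2 units and the dotted line in the Ctla4 panel is the background of 5.87; Foxp3 and Ctla4 lie lower and Gpr83 higher in miR-142-/- in both populations.

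The surface receptors of the interleukin 2 and CD28 families behaved differently from each other. Ctla4 (probe set 10346790), the inhibitory competitor of CD28 for its ligands, read 6.64 in miR-142-/- and 9.29 in WT Qa2+ cells. In Qa2- cells it read 6.07 in miR-142-/- and 8.69 in WT. Both miR-142-/- arrays lay below both WT arrays, by -2.65 in Qa2+ and -2.61 in Qa2- cells, and the lowest value was close to background, where log2 differences are compressed.

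Il2ra (probe set 10469278) encodes CD25, the chain that gives the interleukin 2 receptor its high affinity. It read 11.14 in miR-142-/- and 10.89 in WT Qa2+ cells, and 10.48 in miR-142-/- and 10.15 in WT Qa2- cells. The differences were small and positive, 0.26 and 0.33, so Il2ra was not lower without miR-142 while Foxp3 was.

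The 3 tumour necrosis factor receptor genes, which encode costimulatory receptors, shared a pattern that neither Foxp3 nor Ctla4 had. In each of them the miR-142-/- Qa2- array was the highest of the 4 and the miR-142-/- Qa2+ array the lowest. Tnfrsf4 (probe set 10511282) read 10.14 in miR-142-/- and 10.96 in WT Qa2+ cells, and 11.20 in miR-142-/- and 11.10 in WT Qa2- cells. Tnfrsf9 (probe set 10510580) read 9.58 in miR-142-/- and 10.04 in WT Qa2+ cells, and 11.27 in miR-142-/- and 10.86 in WT Qa2- cells. Its genotype difference was -0.46 in Qa2+ and 0.41 in Qa2- cells, so the sign depended on the stage. Tnfrsf18 (probe set 10511290) read 10.81 in miR-142-/- and 10.95 in WT Qa2+ cells, and 11.45 in miR-142-/- and 11.15 in WT Qa2- cells. Of the 3, Tnfrsf4 alone passed 1.5-fold in a genotype comparison, with -0.82 in Qa2+ cells and 0.11 in Qa2- cells. The sign thus changed with the stage for Tnfrsf4 too, and for Tnfrsf18 (-0.14 in Qa2+ and 0.30 in Qa2- cells). Ikzf2 had the same order of arrays as these 3 genes.

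Lrrc32 (probe set 10555174) encodes GARP, which holds latent transforming growth factor beta on the surface of activated regulatory T cells. It read 8.03 in miR-142-/- and 9.32 in WT Qa2+ cells, and 7.70 in miR-142-/- and 7.87 in WT Qa2- cells. The array of WT Qa2+ cells stood above the other 3, so the genotype difference was -1.29 in Qa2+ cells but -0.18 in Qa2- cells.

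Gpr83 (probe set 10583286), a G protein-coupled receptor gene whose RNA is enriched in regulatory T cells of the mouse, went the other way. It read 11.15 in miR-142-/- and 9.87 in WT Qa2+ cells. In Qa2- cells it read 11.10 in miR-142-/- and 10.07 in WT. Both miR-142-/- arrays lay above both WT arrays, and the gene was 2.42-fold higher in Qa2+ and 2.04-fold higher in Qa2- cells.

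Read together, 4 of the 10 genes were lower by 1.5-fold or more in miR-142-/- than in WT Qa2+ cells (Foxp3, Ctla4, Lrrc32 and Tnfrsf4), where 4.88% of the 12591 genes above background were, and centring made it 5 with Ikzf4. In Qa2- cells 2 were (Foxp3 and Ctla4), where 3.74% of all genes were. Gpr83 was the 1 gene at least 1.5-fold higher, in Qa2+ cells, where 4.56% of all genes were, and in Qa2- cells, where 3.11% were. In both populations at once, Foxp3 and Ctla4 were lower and Gpr83 higher, against 2.76% of all genes lower and 2.14% higher. Over the 10 genes the median difference was -0.50 for Qa2+ cells and 0.09 for Qa2- cells, beside medians of 0.00 over all genes in each. A single array per group allows no replicate check of these comparisons and no p-value. Since the 10 genes were named with earlier results known, the counts describe them and test nothing. The labels give both populations of a genotype the same pool makeup without saying that it was 1 pool, and a difference seen in both may not measure the spread between mice.

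**Figure D2:**
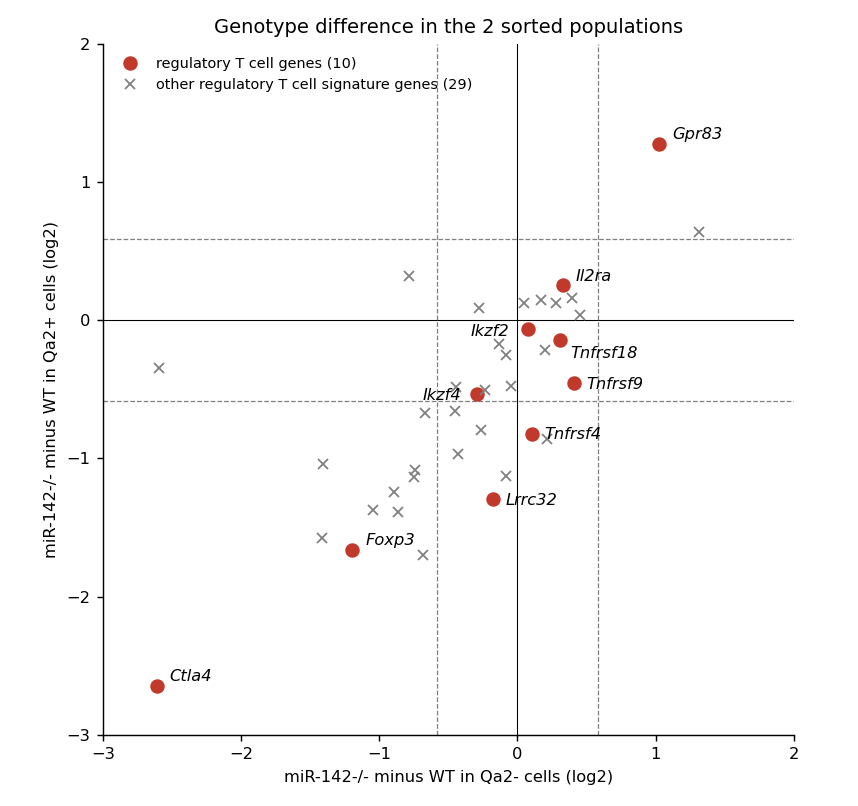
Genotype difference (miR-142-/- minus WT, log2) in Qa2- cells (horizontal) and Qa2+ cells (vertical) for the 10 genes (filled circles, named) and for 29 other regulatory T cell signature genes above background (crosses). Dashed lines mark 1.5-fold; Ctla4 at -2.61 and -2.65 and Foxp3 at -1.19 and -1.66 lie at the lower left and Gpr83 at 1.03 and 1.27 at the upper right.

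The bases upstream of Foxp3, Ctla4 and Gpr83 are shown because these 3 genes had the differences shared by both populations, in opposite directions. RefSeq promoter windows (GRCm38.p6) matched 7 of the 10 genes. The 250 bases before the listed start (for Foxp3 the first of 2) are given for Foxp3 (chrX:7579426-7579675), Ctla4 (chr1:60908775-60909024) and Gpr83 (chr9:14859960-14860209), all on the plus strand, with motif matches in capitals.
Foxp3: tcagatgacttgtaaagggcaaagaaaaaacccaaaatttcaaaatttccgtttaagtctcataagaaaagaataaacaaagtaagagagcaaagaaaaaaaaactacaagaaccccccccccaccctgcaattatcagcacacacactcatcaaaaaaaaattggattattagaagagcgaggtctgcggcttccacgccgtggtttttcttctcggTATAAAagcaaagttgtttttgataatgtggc
Ctla4: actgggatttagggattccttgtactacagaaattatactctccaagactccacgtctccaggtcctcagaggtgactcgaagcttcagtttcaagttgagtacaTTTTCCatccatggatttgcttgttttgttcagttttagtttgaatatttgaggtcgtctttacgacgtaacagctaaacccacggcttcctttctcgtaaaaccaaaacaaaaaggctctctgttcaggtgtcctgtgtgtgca
Gpr83: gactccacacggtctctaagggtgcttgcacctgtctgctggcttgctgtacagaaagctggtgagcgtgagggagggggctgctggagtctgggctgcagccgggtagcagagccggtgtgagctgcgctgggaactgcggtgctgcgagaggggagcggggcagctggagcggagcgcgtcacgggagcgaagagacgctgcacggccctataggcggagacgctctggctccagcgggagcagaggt

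The 3 motifs searched, on both strands, were the TATA box TATAAA, the forkhead motif GTAAACA and the NFAT core GGAAAA, and none of the matches overlapped. The Foxp3 window shown held 1 TATAAA at position -32 from the start, and 12.4% of 32851 promoter windows of this length held one. The window of the second Foxp3 start, not shown, held no TATAAA and 1 GGAAAA on the minus strand at position -141. The Ctla4 window held 1 GGAAAA on the minus strand at position -145, and 20.4% of windows held one. The Gpr83 window held none of the 3, and no window of the 3 genes held GTAAACA, which 3.17% of windows held. The Gpr83 window was 66.8% G and C, against 37.6% for the Foxp3 window shown (46% for its second), 42.4% for Ctla4 and a median of 52.4% over all windows. A match is only a match of letters and draws no link to the expression differences.

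The second comparison asked how each gene differed between the stages, Qa2+ minus Qa2- within a genotype, and limma with genotype as a block tested the mean of both genotypes. Foxp3, Il2ra, Ctla4 and Lrrc32 rose and Ikzf2 and Tnfrsf9 fell in the more mature cells, which is 4 and 2 of 10, against 4.77% of all genes higher and 8.35% lower by the same test. The balance over all genes depends on scaling. As deposited 600 genes were higher and 1051 lower, while 1076 were higher and 721 lower after centring each array on its median, and 975 were higher and 765 lower after quantile normalization. The calls of these 6 genes were the same under both scalings, and centring moved the median WT stage difference over all genes by 0.102.

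Foxp3 showed the largest stage difference of the 10 genes, 1.91 ± 0.13 (limma log2 difference ± SE, 2 pairs of arrays, Benjamini-Hochberg adjusted p = 0.00046). It was 1.68 in miR-142-/- and 2.15 in WT cells, so Foxp3 was higher in the Qa2+ population without miR-142 too. Il2ra rose by 0.70 ± 0.10 (limma, adjusted p = 0.0049), with 0.66 in miR-142-/- and 0.73 in WT. Ctla4 rose by 0.58 ± 0.10 (limma, adjusted p = 0.0097), with 0.56 in miR-142-/- and 0.60 in WT, although its level was far lower in miR-142-/-. The stage differences of Il2ra and Ctla4 were thus nearly the same in both genotypes.

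Lrrc32 rose by 0.89 ± 0.22 (limma, adjusted p = 0.037), but the genotypes were unlike, with 0.33 in miR-142-/- and 1.45 in WT. Ikzf2 differed by -0.60 ± 0.10 (limma, adjusted p = 0.0098), with -0.67 in miR-142-/- and -0.53 in WT. Tnfrsf9 differed by -1.26 ± 0.18 (limma, adjusted p = 0.0054), with -1.69 in miR-142-/- and -0.82 in WT. These 2 genes fell as Foxp3 rose.

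The other 4 genes did not pass the limma threshold of 0.05. Tnfrsf4 differed by -0.60 ± 0.19 (adjusted p = 0.077), with -1.07 in miR-142-/- and -0.14 in WT. Tnfrsf18 differed by -0.43 ± 0.13 (adjusted p = 0.063), with -0.65 in miR-142-/- and -0.20 in WT. Ikzf4 differed by 0.17 ± 0.11 (adjusted p = 0.33) and Gpr83 by -0.08 ± 0.11 (adjusted p = 0.66). Without the genotype block no gene on the array passed limma's threshold (1544 had an unadjusted p under 0.05), and the adjusted p of the 6 called genes was then 0.32 to 0.88. The fit has 1 residual degree of freedom, so its errors rest mostly on a prior pooled over all genes, and in simulated arrays it let through more false calls than the nominal rate.

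**Figure D3:**
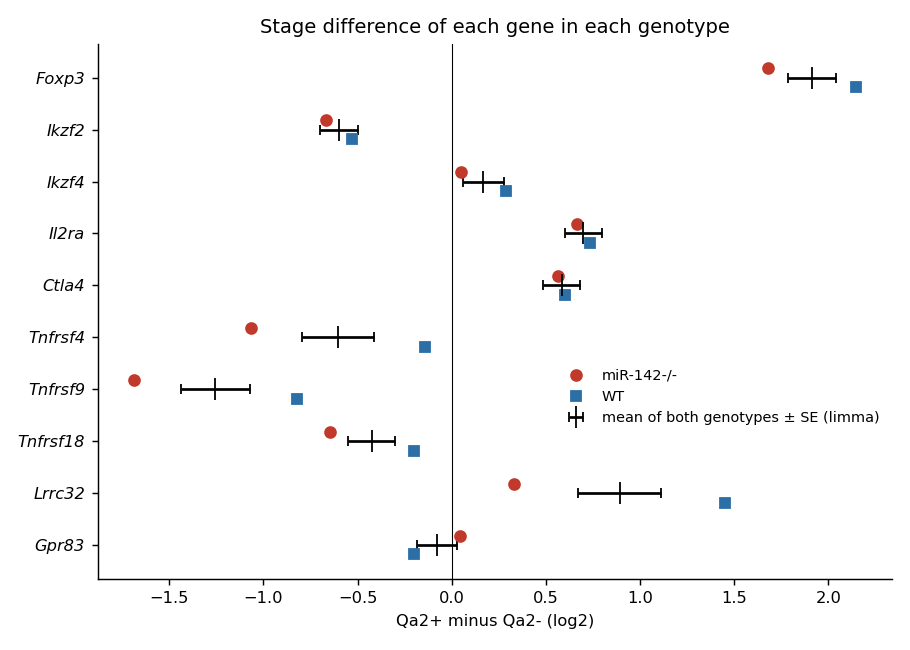
Stage difference (Qa2+ minus Qa2-, log2) of the 10 genes in miR-142-/- (circles) and WT (squares), with the limma mean of both genotypes ± SE as a bar. The genotypes lie close together for Il2ra and Ctla4 and far apart for Lrrc32, Tnfrsf4 and Tnfrsf9.

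Within a single genotype the lists of genes past 1.5-fold were not alike. In miR-142-/- cells Ikzf2, Tnfrsf4, Tnfrsf9 and Tnfrsf18 were lower by 1.5-fold or more in the Qa2+ population, as were 3.64% of all genes, and Foxp3 and Il2ra were higher, as were 2.65%. In WT cells Tnfrsf9 alone was lower, as were 3.69% of all genes, and Foxp3, Ctla4, Il2ra and Lrrc32 were higher, as were 2.69%. Tnfrsf18 and Ctla4 lay close to the limit in miR-142-/- cells. After centring Tnfrsf18 was at -0.58, which left 3 genes lower, and Ctla4 was at 0.63 after centring and 0.64 after quantile normalization, which made 3 genes higher.

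The stage difference was lower in miR-142-/- than in WT for 9 of the 10 genes, Gpr83 (0.25) being the exception, while 50.1% of all genes were lower. For most of the 9 the gap was small. It was at least 1.5-fold for Lrrc32 (-1.12), Tnfrsf4 (-0.92) and Tnfrsf9 (-0.87), and 1.6% of all genes passed the same limit. Foxp3 followed with -0.47, Tnfrsf18 with -0.44 and Ikzf4 with -0.24, and Ikzf2, Il2ra and Ctla4 lay between -0.14 and -0.04, within the receptor gene SD of 0.22. These gaps are the residual of the limma fit, so no degree of freedom remained for a test of them.

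Ordered by their arrays, the 10 genes fell into 2 sets of 4 and 2 single genes. Foxp3, Ctla4, Ikzf4 and Lrrc32 were highest in WT Qa2+ cells and lowest in miR-142-/- Qa2- cells. Ikzf2, Tnfrsf4, Tnfrsf9 and Tnfrsf18 were highest in miR-142-/- Qa2- cells and lowest in miR-142-/- Qa2+ cells. Il2ra was highest in miR-142-/- Qa2+ and lowest in WT Qa2- cells, and Gpr83 was highest in miR-142-/- Qa2+ and lowest in WT Qa2+ cells. Likeness was measured as the distance between log2 profiles over the 4 arrays after subtracting each gene's mean, so that 0 is identical. The closest pair was Ikzf2 and Tnfrsf18, at 0.24, and the closest of the 10 to Foxp3 was Lrrc32, at 1.28.

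Over all genes above background, the 5 genes most like Foxp3 were the interferon-induced gene Ifit3 (0.33), Sntb1, which encodes a syntrophin (0.37), Rflnb (0.41), Ttc39b (0.56) and Ms4a4c (0.63). The 5 most like Ctla4 were mostly genes of dividing cells, namely the checkpoint kinase gene Bub1 (0.17), Ccna2 (0.25), Mki67 (0.25) and Nusap1 (0.37), with the ubiquitin ligase gene Neurl3 (0.37). Ctla4 was closer to these genes than to Foxp3, from which it lay 1.81, and the miR-142-/- Qa2- values of Bub1 (5.37) and Neurl3 (5.22) lay under background. The 5 most like Gpr83 were Alg14 (0.11), Khdrbs3 (0.14), Ro60 (0.14), Akap7 (0.15) and Cdh24 (0.16). With 4 arrays many genes share a profile, so these are descriptions only.

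The genes beside Foxp3, Ctla4 and Gpr83 in the gene order of GRCm38.p6 differed less between genotypes or in the other direction. Ctla4 lies between the costimulatory receptor genes Cd28 (0.41 in Qa2+, 0.21 in Qa2- cells) and Icos (-0.49 in Qa2+, -0.44 in Qa2- cells). The neighbours of Foxp3, Ppp1r3f and Ccdc22, differed by 0.01 to 0.12 in both populations. Gpr83 lies between Mre11a (0.08 in Qa2+, -0.09 in Qa2- cells) and Izumo1r, the gene of the folate receptor 4 protein that regulatory T cells carry, and Izumo1r was lower in miR-142-/-, by -0.66 in Qa2+ and -0.45 in Qa2- cells, where Gpr83 was higher. Tnfrsf4 and Tnfrsf18 are themselves neighbours. These neighbours were looked up after the values had been seen.

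A list of 36 other genes of the regulatory T cell signature, 29 of them above background, had more members lower than higher in miR-142-/-. Among Qa2+ cells 14 passed 1.5-fold as lower and 1 as higher (4.88% and 4.56% of all genes did), with a median of -0.50, and among Qa2- cells 11 were lower and 1 higher (3.74% and 3.11%), with a median of -0.28. In both populations 9 were lower (2.76% of all genes were). Of these, 4 are described, those with the largest mean of both measured differences, namely Itgae, the integrin chain CD103 (-1.58 in Qa2+ and -1.41 in Qa2- cells), Rgs1, a regulator of G protein signalling (-1.04 and -1.41), Il2rb, the signalling beta chain of the interleukin 2 receptor (-1.37 and -1.04), and the chemokine receptor gene Ccr6. In Qa2+ cells the miR-142-/- value of Ccr6, 5.64, was under background, so the gene was lower by at least 2.76-fold, and the difference in Qa2- cells was 1.61-fold. Its place among the 4 rests on that value under background. With Ccr6 at its bound the transcription factor gene Irf4 (-1.39 in Qa2+, -0.86 in Qa2- cells), above background on all arrays, would come before it. The 1 gene higher in both was Nt5e, which encodes the ectonucleotidase CD73 (0.64 in Qa2+, 1.31 in Qa2- cells). By stage, limma called 5 of the 29 higher and 5 lower in Qa2+ cells, beside 4.77% and 8.35% of all genes.

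Of 32 genes that control or partner Foxp3, none passed 1.5-fold in Qa2- cells, and 2 were lower in Qa2+ cells, a share near the 4.88% of all genes. These were the nuclear receptor genes Nr4a2 (-0.78) and Nr4a3 (-0.92), named after their values were seen, and the medians were -0.10 in Qa2+ and 0.03 in Qa2- cells. By the limma test 7 of the 32 were lower and 1, Foxo1, higher in Qa2+ cells, beside 8.35% and 4.77% of all genes. The balance over all genes turns with scaling, as given above. Nr4a2 and Nr4a3 were among those that fell (by -1.69 and -1.28). Of 12 genes of interleukin 2 receptor signalling, Il2rb was the 1 lower in both populations, as were 2.76% of all genes. The list medians were 0.02 in Qa2+ (-0.04 after centring) and 0.11 in Qa2- cells. Stat5a and Stat5b, which carry the receptor's signal to DNA, differed by -0.33 and 0.16 in Qa2+ cells. Il2 itself was below background on all arrays. The high-affinity chain was therefore slightly higher and the shared beta chain lower in miR-142-/- cells.

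Of 24 other genes of the tumour necrosis factor receptor family, its ligands and adaptors, Traf1 alone was at least 1.5-fold lower in both populations. It differed by -1.96 in Qa2+ and -1.74 in Qa2- cells, and 2.76% of all genes were lower in both. In Qa2+ cells Traf5 (-0.81) was also lower by 1.5-fold, while Tnfrsf26 (0.87) and Nfkbia (0.73) were higher. That is 2 of the 24 lower and 2 higher, beside 4.88% and 4.56% of all genes. TRAF1 is an adaptor of OX40, CD137 and GITR. The medians of this list were -0.07 in Qa2+ and 0.03 in Qa2- cells, and the ligand genes Tnfsf4 and Tnfsf18 of OX40 and GITR were below background on all arrays. Of 12 genes of transforming growth factor beta signalling and GARP, Itgb8, an integrin chain that releases the active factor, was the 1 past 1.5-fold. It differed by -1.41 in Qa2+ cells, where 4.88% of all genes were lower, and by 0.13 in Qa2- cells. Its miR-142-/- Qa2+ value of 5.88 was just above background. The other Ikaros family genes Ikzf1, Ikzf3 and Ikzf5 differed by 0.02 to 0.28.

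Several lists of markers of other cells, and a list of proliferation genes, were also compared between genotypes. Over all genes above background, 4.88% were lower and 4.56% higher by 1.5-fold or more in miR-142-/- Qa2+ cells. In Qa2- cells 3.74% were lower and 3.11% higher. Of 16 proliferation genes, 15 were lower by 1.5-fold or more without miR-142 in each population, with medians of -2.19 in Qa2+ and -1.88 in Qa2- cells, and their median level was 7.62 in miR-142-/- and 9.79 in WT Qa2+ cells, and 7.48 in miR-142-/- and 9.27 in WT Qa2- cells. Of 10 effector or recirculating T cell markers, 6 were lower in each population, with medians of -0.65 and -0.83. Among those lower in both were Crip1 (-1.66 in Qa2+ and -2.23 in Qa2- cells), Lgals1 (-2.16 and -1.46) and Cxcr3 (-1.05 and -1.53). The adhesion receptor gene Cd44 came next (-0.81 in Qa2+ and -1.03 in Qa2- cells). The Qa2+ count includes S100a4, under background in miR-142-/- cells, for which the bound is at least 1.37-fold. Against the list, Maf was 2.58-fold higher without miR-142 among Qa2+ cells, the 1 marker past 1.5-fold as higher. Among Qa2- cells Maf was 0.26 higher, under that limit. Itgb1 was also slightly higher, by 0.34 at the Qa2+ stage and by 0.09 at the Qa2- stage. Of 8 CD8 T cell markers 3 were lower in Qa2+ and 5 in Qa2- cells (Cd8b1 and Ccl5 in both). Nkg7 differed by -3.47 in Qa2- but -0.45 in Qa2+ cells. Gzmb and Klrd1, under background in miR-142-/- cells, were lower by at least 8.09-fold and 4.28-fold in Qa2- cells. Eomes was the 1 marker past 1.5-fold as higher, in Qa2- cells (0.67), with a WT value of 5.90 near background. Cd8a differed by -0.22 in Qa2+ and -0.20 in Qa2- cells. The Qa2+ count of lower genes includes Gzmb, whose miR-142-/- value was under background, so that the bound is at least 1.11-fold and 1.5-fold is not shown. Of 7 innate-like T cell markers 3 were lower in each population (Zbtb16, Tbx21 and Cxcr6), with list medians of -0.15 in Qa2+ and -0.19 in Qa2- cells. Il17rb went the other way, 0.85 higher in Qa2+ and 0.53 higher in Qa2- cells. The double-positive thymocyte markers had medians of 0.32 in Qa2+ and 0.33 in Qa2- cells. By the limma test 5 of the 6 were higher in Qa2+ cells, as were 4.77% of all genes. The part of these lists in the differences of the regulatory T cell genes was not tested. The CD4 T cell markers differed by medians of -0.05 in Qa2+ (0.09 after quantile normalization) and 0.01 in Qa2- cells (-0.02 after centring).

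**Figure D4:**
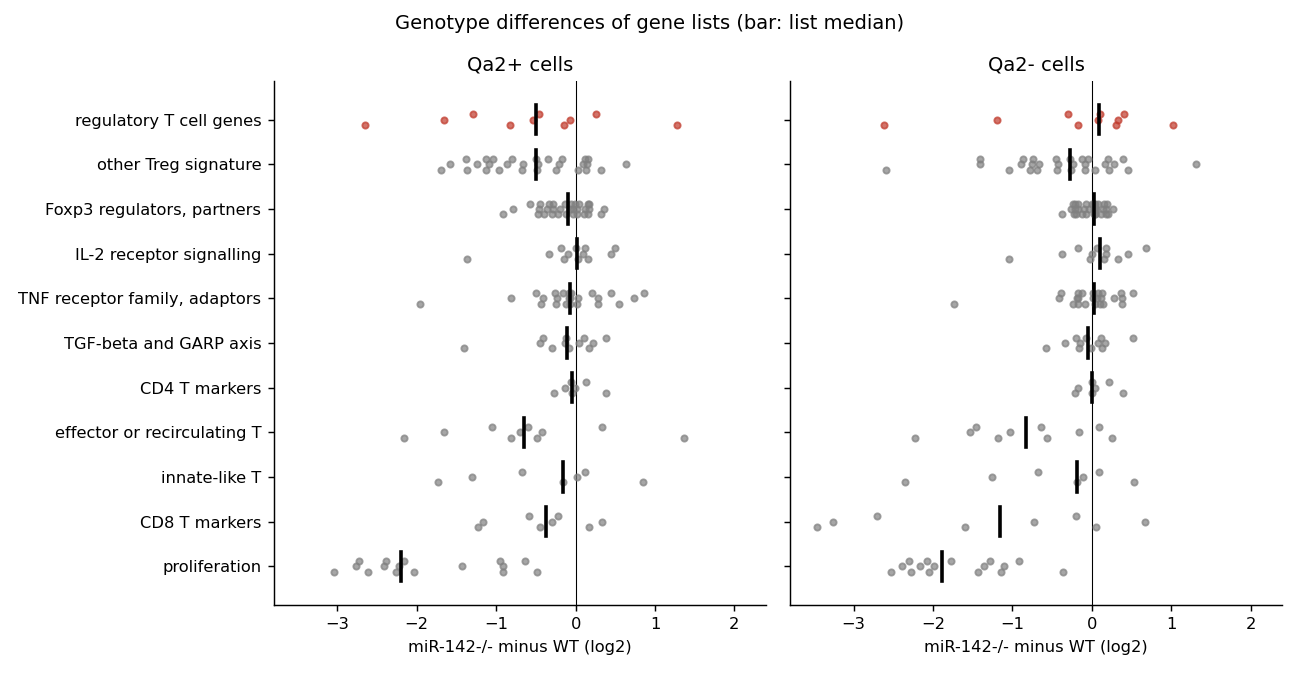
Genotype difference (miR-142-/- minus WT, log2) of every gene above background in 11 lists, in Qa2+ cells (left) and Qa2- cells (right); each point is 1 gene and each bar the list median. The regulatory T cell genes spread from -2.65 to 1.27 in Qa2+ cells, while the proliferation genes lie below 0 throughout and the CD4 T cell markers lie between -0.28 and 0.39 across both panels.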

How the data were processed

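Deposited were log2 expression values of 35557 probe sets, for which RMA and Partek are named per the submitters' processing notes (no version is stated there). RMA makes arrays alike in distribution and compresses differences of dim probe sets. The authors' log2 values were used as deposited, with array medians of 6.61 to 6.74. The number of arrays limits the precision. Of the probe sets, 21789 had 1 gene in GEO's platform annotation, 1621 had several and 12147 had none. Symbols were updated by Entrez ID (21698 matched, GRCm38.p6). A gene took its probe set with the highest mean, and 12591 genes were above background. Genotype differences have 1 array per group and no test. Stage differences were tested over all genes above background in R 4.3.3 by limma 3.58.1. Genotype was the block because the labels give both populations of a genotype the same pool makeup, though not that it was 1 pool. The test was two-sided with Benjamini-Hochberg adjustment. The fit was tested on simulated data. Up to 4 genes of each list with the largest differences past 1.5-fold in both populations were named, with the 5 profiles nearest to Foxp3, Ctla4 and Gpr83, and other names were added after values were seen. The 10 genes and all lists were chosen with earlier results of these data known. Alternatives were array scaling, probe set choice, background, fold, genotype block, intensity trend and no filter.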

Additional observations from a re-analysis of the deposited data

Results flagged for a closer look

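Tnfrsf9 differed in opposite directions between genotypes at the 2 stages, with miR-142-/- minus WT at -0.46 in Qa2+ cells and 0.41 in Qa2- cells. The gap between these differences was -0.87, beside a receptor gene SD of 0.22 for the same quantity. The sign also changed for Tnfrsf4, Tnfrsf18 and Ikzf2, each with at least 1 difference smaller than the receptor gene SD of its comparison. With 1 array per group the gap of Tnfrsf9 was not tested.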

How the results depend on the processing

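Centring each array on its median, quantile normalization, averaging probe sets, a 99th percentile background and a fold of 2 left the counts of the 10 genes higher or lower by genotype within 1.5 times of the reported counts (the count lower in Qa2+ cells was 5 after centring, adding Ikzf4, and 3 at a fold of 2), and their medians moved by less than the receptor gene SD. By stage in miR-142-/- cells, 3 genes were lower after centring against 4 as reported, and 3 were higher after either scaling against 2. For the stage calls by limma, leaving out the genotype block gave 0 of the 10 genes that rose and 0 that fell. Over all genes, 600 rose and 1051 fell as deposited, 1076 rose after centring and 975 after quantile normalization, and 1593 fell with no background filter. Among the 10 genes an intensity trend gave 4 that fell, adding Tnfrsf4 (adjusted p = 0.036) and Tnfrsf18 (0.023), and Tnfrsf18 also passed with no background filter (0.049). The cause was not tested. Of 180 values of single genes under alternatives, 171 kept their direction and side of the threshold or moved by less than that SD, and the other 9 were these 3 additions and the 6 calls lost without the block. At a fold of 2, 9 of the other signature genes were lower in Qa2+ and 4 in Qa2- cells, and after centring Nt5e was under 1.5-fold in Qa2+ cells. In all, 34 counts or medians of gene lists moved. The genotype medians of 3 lists changed sign. The CD28 family in Qa2+ cells was at 0.29 with the stricter background and -0.01 as reported. Interleukin 2 signalling in Qa2+ cells was at 0.02 as reported, -0.04 after centring, -0.01 after quantile normalization and -0.08 with probe sets averaged. The CD4 T cell markers were at 0.09 after quantile normalization and -0.05 as reported in Qa2+ cells, and at -0.02 after centring and 0.01 as reported in Qa2- cells. No paired analysis by replicate number was possible because the labels carry none. Values near background, such as Ctla4 in miR-142-/- cells, have compressed differences.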

Other observations

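The ligands of the CTLA-4 and CD28 receptors differed in opposite directions. Cd86 read 8.83 in miR-142-/- and 7.61 in WT Qa2+ cells, and 9.38 in miR-142-/- and 7.40 in WT Qa2- cells. Cd80 read 5.53, below background, in miR-142-/- and 6.86 in WT Qa2+ cells, at least 1.99-fold lower, and 5.51 in miR-142-/- and 5.97 in WT Qa2- cells. The 8 other genes of the family had median differences of -0.01 in Qa2+ and 0.14 in Qa2- cells. Among them Cd86 was the 1 past 1.5-fold in both populations, as higher, and 2.14% of all genes were higher in both. Btla, an inhibitory receptor gene, was 0.63 higher in Qa2+ cells and 0.35 higher in Qa2- cells. Of the markers of other cells that carry Cd86, 1 of 6 B cell genes and 7 of 10 myeloid or dendritic cell genes were above background, the myeloid list with medians of -0.33 in Qa2+ and -0.09 in Qa2- cells. Their part in the Cd86 difference was not tested.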
